A study of Mus musculus with 6 samples.

Results

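The genes described here encode mucins and the Golgi enzymes that build and cap their sugar chains. They were chosen by gene symbol, from the names of the mucins (*Muc*), the transferases that start, branch, extend, sialylate and fucosylate glycans, and the carbohydrate and heparan sulfate sulfotransferases, and 121 of the 23420 genes in the deposited table carried such a symbol. RNA was sequenced from uteri of C57BL/6J females, 8 weeks old, that had been mated with vasectomized males and were taken on pseudopregnancy day 4.5, when no embryo is present. Control mice (*Foxo1f/f*) carry the floxed *Foxo1* alleles without Cre. The *Foxo1d/d* mice (PgrCre/+ Foxo1f/f in the labels) carry the same floxed alleles and express Cre from the *Pgr* locus. Only they carry Cre and the changed *Pgr* allele, so an effect of either cannot be told apart from that of the deletion. By the paper's account this Cre is active beyond the uterus too, in ovarian granulosa cells, the mammary gland and the pituitary. An effect from outside the uterus therefore cannot be told apart from one within it. Each genotype had 3 libraries, each made from a pool of 2 mice.

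The table analysed here holds, gene by gene, the average of the raw counts that the authors obtained from the 3 libraries of a genotype, and no values of single libraries were used here. No spread between pools could therefore be given, and no test was run. The mean total count was 26125014 in controls and 27257963 in *Foxo1d/d*. A fold is the ratio of the mean counts after each was divided by its genotype's total, and its 95% Wilson interval, computed from the summed counts, covers counting error only. *Foxo1* itself had a mean count of 3941 in controls and 1456 in *Foxo1d/d*, a 2.82-fold lower level (interval 2.73 to 2.92), which is the direction the labels give. The conditional allele removes the second major coding exon, so reads from the rest of the transcript can still be counted. The paper also reports FOXO1 staining left in blood vessels of pregnant *Foxo1d/d* uteri. The source of the remaining reads was not tested.

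Mucins are long glycoproteins whose serine- and threonine-rich stretches carry dense O-linked glycans. Polypeptide GalNAc-transferases place the first sugar, core enzymes turn it into branched or unbranched cores, and further transferases extend the chains and close them with sialic acid, fucose or sulfate. On the luminal epithelium (LE) of the uterus, mucins and their glycans form the layer that a blastocyst meets first, and the mouse uterus is known to change this layer around the time of implantation. Many of the same enzymes act on N-glycans, glycolipids and proteoglycans in every cell of the organ, so RNA of the uterus holds transcripts of stroma, muscle, vessels and leukocytes as well as those of LE and glandular epithelium (GE). In such RNA, fewer cells of a type and less RNA per cell cannot be told apart.

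Of the 121 members, 3 had no count in either genotype, namely *Chst5*, *Hs3st2* and *St8sia3*, 9 had counts but a mean below 10 over both genotypes, and 109 had a mean of at least 10. Among these 109, 13 were higher and 8 were lower in *Foxo1d/d* by more than 1.5-fold, judged by the log2 ratio with a pseudocount of 1 added to both mean counts. That is 11.9% and 7.34% of them, while of all 15696 genes with such a mean count 5.43% were higher and 3.51% lower to the same extent. The median log2 ratio was 0.08 for the members and 0.02 for all genes, and the median size of the log2 ratio regardless of sign was 0.23 and 0.14. The members' summed counts were close in the genotypes, at 3401 CPM in controls and 3409 CPM in *Foxo1d/d*.

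**Figure D1:**
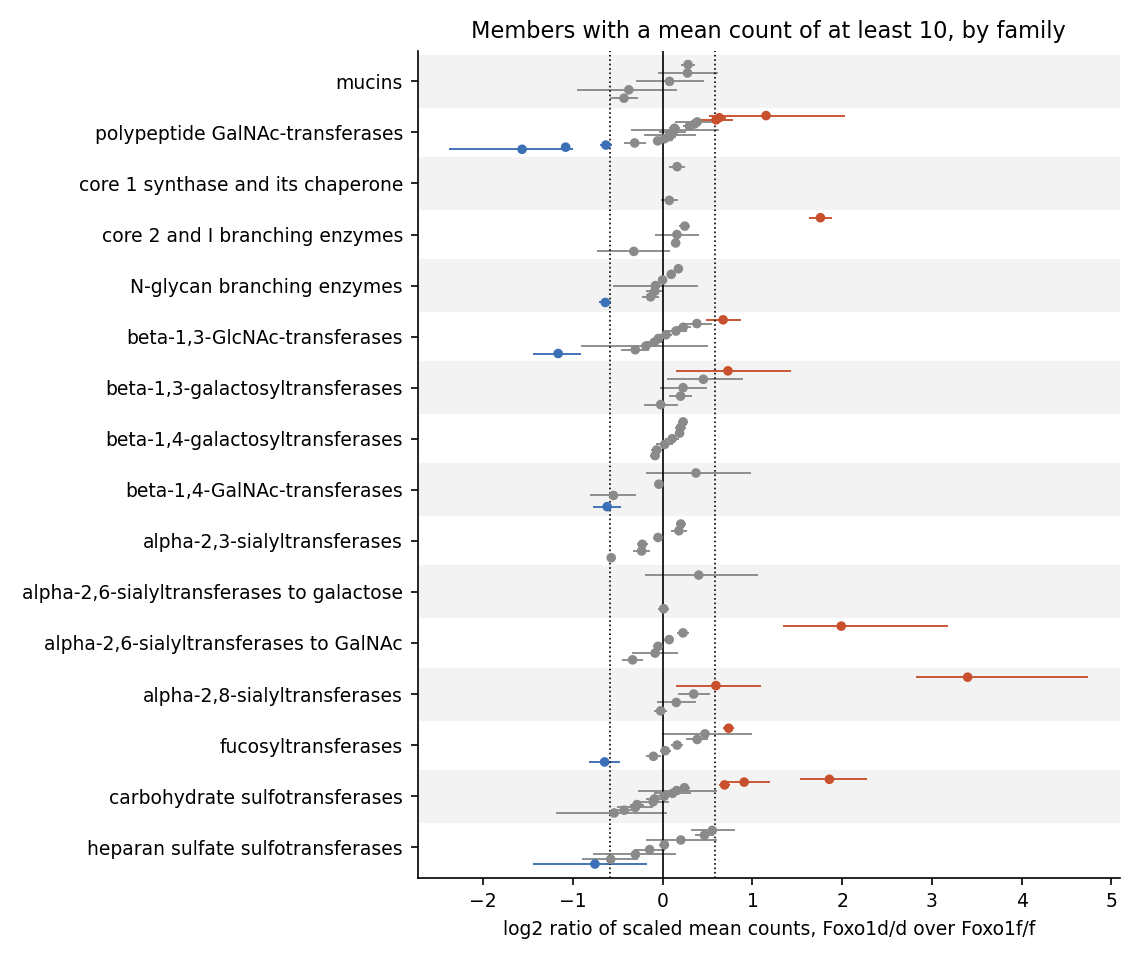
The log2 ratio of the scaled mean counts, *Foxo1d/d* over *Foxo1f/f*, is plotted for the 109 members with a mean count of at least 10, grouped by family. Bars are 95% counting intervals, dotted lines mark 1.5-fold, and members over 1.5-fold higher are red and those over 1.5-fold lower blue. In 3 of the 16 families, members lie past the lines on both sides.

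Of 10 mucin genes, 5 had a mean count of at least 10, and none of these was over 1.5-fold apart in RNA of the uterus. *Muc1*, a transmembrane mucin of the LE, had the most counts, with a mean of 725 in controls and 920 in *Foxo1d/d*. It was 1.22-fold higher (interval 1.15 to 1.29), so its difference lay beyond counting error and under 1.5-fold. The paper lists *Muc1* among genes with aberrant expression that it checked by qRT-PCR in other samples. It also reports that MUC1 staining stayed high in the LE of pregnant *Foxo1d/d* mice when compared with controls. Protein in the LE and RNA of the uterus are different measures. *Muc4*, another transmembrane mucin, had mean counts of 260 and 201, a 1.35-fold lower level in *Foxo1d/d* (interval 1.21 to 1.5). *Muc20* went the other way, with 42.0 and 53.3 counts, and its interval of 0.964 to 1.54 includes no change. The gel-forming mucins *Muc2*, with 35.7 and 39.3 counts, and *Muc6*, with 19.3 and 15.3 counts, did not differ detectably at this depth. Per kilobase of exon, *Muc1* stood at 12.4 CPM in controls and 15.1 in *Foxo1d/d*, and *Muc4* at 0.883 and 0.654. An exon length for *Muc2* was not used here. The annotated exons of *Muc4* and *Muc20* overlap by 236 bases, so reads there could belong to either gene.

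The polypeptide GalNAc-transferases, which start the O-glycans, were the family with the most members past 1.5-fold. Of the 17 with a mean count of at least 10, 3 were higher and 3 lower. Among all genes with such a mean count, 5.43% were higher and 3.51% lower. *Galnt15* had the most counts of the 6. Its mean count was 3559 in controls and 1754 in *Foxo1d/d*, a 2.12-fold lower level (interval 2.05 to 2.19). *Galnt16*, with mean counts of 1536 and 1033, was 1.55-fold lower (interval 1.48 to 1.62). *Galnt9*, known from brain, had only 22.7 and 7.33 counts and was 3.22-fold lower (interval 2.00 to 5.19). In the opposite direction, *Galnt18* had mean counts of 780 and 1260, a 1.55-fold higher level (interval 1.47 to 1.63). *Galnt6* had 126 and 200 counts, 1.51-fold higher (interval 1.33 to 1.72), which lies so close to the threshold that it fell short under other scalings. *Galnt14* had 6.33 and 16.0 counts, and its 2.42-fold higher level has a wide interval of 1.43 to 4.09.

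Compared per kilobase of exon, the order of these enzymes changed between the genotypes. *Galnt1*, a broadly expressed transferase, led in both, with 28.4 CPM per kilobase in controls and 36.3 in *Foxo1d/d*. *Galnt2* was next at 27.6 and 26.6. *Galnt15* held 13.4% of the family's summed level in controls and 6.32% in *Foxo1d/d*, whereas *Galnt18* held 7.23% and 11.1%. The family summed to 160 CPM per kilobase in controls and to 161 in *Foxo1d/d*, so lower *Galnt15* and *Galnt16* stood beside higher *Galnt1* and *Galnt18* at an almost equal total. These sums and shares leave out *Wbscr17*, now called *Galnt17*, whose listed symbol the rule did not match.

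**Figure D2:**
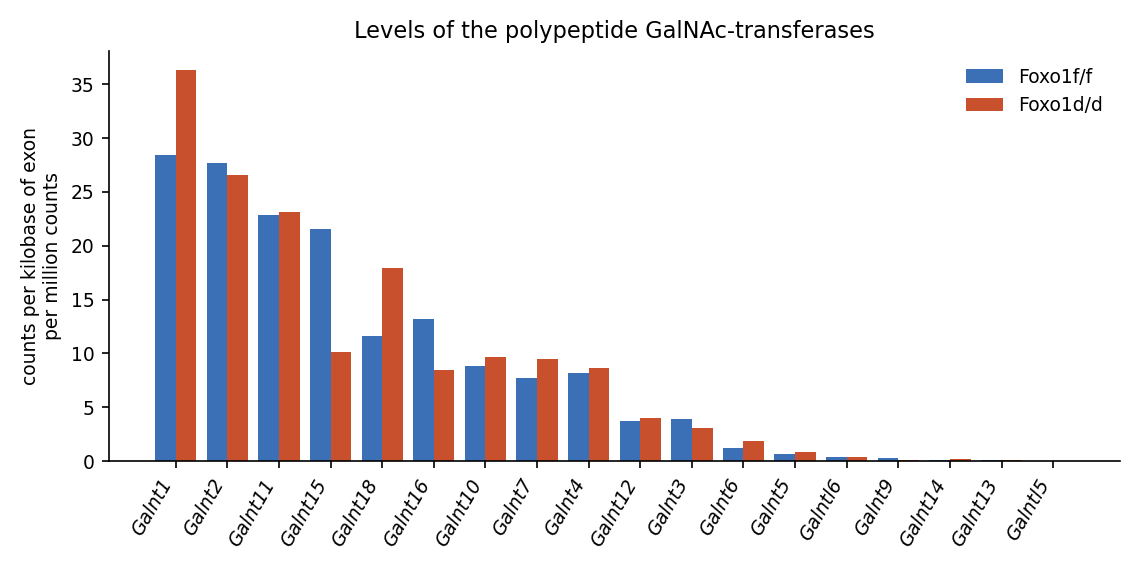
Bars give the level of each of the 18 polypeptide GalNAc-transferases matched by symbol, in CPM per kilobase of exon. They come from the mean counts of *Foxo1f/f* (blue) and *Foxo1d/d* (red), with no spread between pools. *Galnt15* is at 21.5 in controls and 10.2 in *Foxo1d/d*, and *Galnt18* is at 11.6 and 17.9.

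The next step decides the core of the O-glycan. Core 1, made by *C1galt1* with the chaperone encoded by *C1galt1c1*, showed small differences. *C1galt1c1*, which led per kilobase, had mean counts of 553 and 607, a ratio whose interval of 0.985 to 1.12 includes no change. *C1galt1* itself had 665 and 776 counts, a 1.12-fold higher level (interval 1.05 to 1.19). Core 2 branches are added to core 1 by *Gcnt1*, *Gcnt3* and *Gcnt4*, and *Gcnt3* was the one past 1.5-fold. Its mean count was 210 in controls and 745 in *Foxo1d/d*, a 3.39-fold higher level (interval 3.11 to 3.71). *Gcnt3* encodes the mucin-type enzyme, which can make core 2, core 4 and I branches. Its share of the summed level per kilobase of the 5 branching enzymes was 6.49% in controls and 17.3% in *Foxo1d/d*, while *Gcnt2*, the I branching enzyme that led the family, held 55.6% and 48.2%. *Gcnt2* itself had mean counts of 2886 and 3328, 1.11-fold higher (interval 1.07 to 1.14). The core 2 gene *Gcnt1* had 1243 and 1538 counts, 1.19-fold higher (interval 1.14 to 1.24). Per kilobase it stood at 9.72 and 11.5 CPM, above *Gcnt3* at 1.87 and 6.35 in both genotypes. *Gcnt4* had 82.0 and 95.7 counts, and its interval of 0.943 to 1.33 includes no change.

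Core 3, the alternative to core 1 that is known from intestinal mucus, is made by *B3gnt6*. This transcript was lower in *Foxo1d/d*, with mean counts of 119 and 55.0, a 2.26-fold difference (interval 1.88 to 2.72). *B3gnt3*, which extends core 1 with GlcNAc, was higher, with 110 and 184 counts, a 1.60-fold difference (interval 1.40 to 1.83). The other 8 genes of this family were under 1.5-fold apart. Per kilobase the gene listed as *B3gnt1*, now called *B4gat1* and known as a glucuronyltransferase for dystroglycan, led the family with 17.0 and 17.4 CPM per kilobase, and 49.5% of its annotated exon length is shared with another annotated gene. The core 2 enzyme gene *Gcnt3* and the core 1 extension gene *B3gnt3* were thus higher, and the core 3 gene *B3gnt6* lower, in the same RNA. The more abundant core 2 gene *Gcnt1* was under 1.5-fold apart, and the glycans themselves were not measured.

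**Figure D3:**
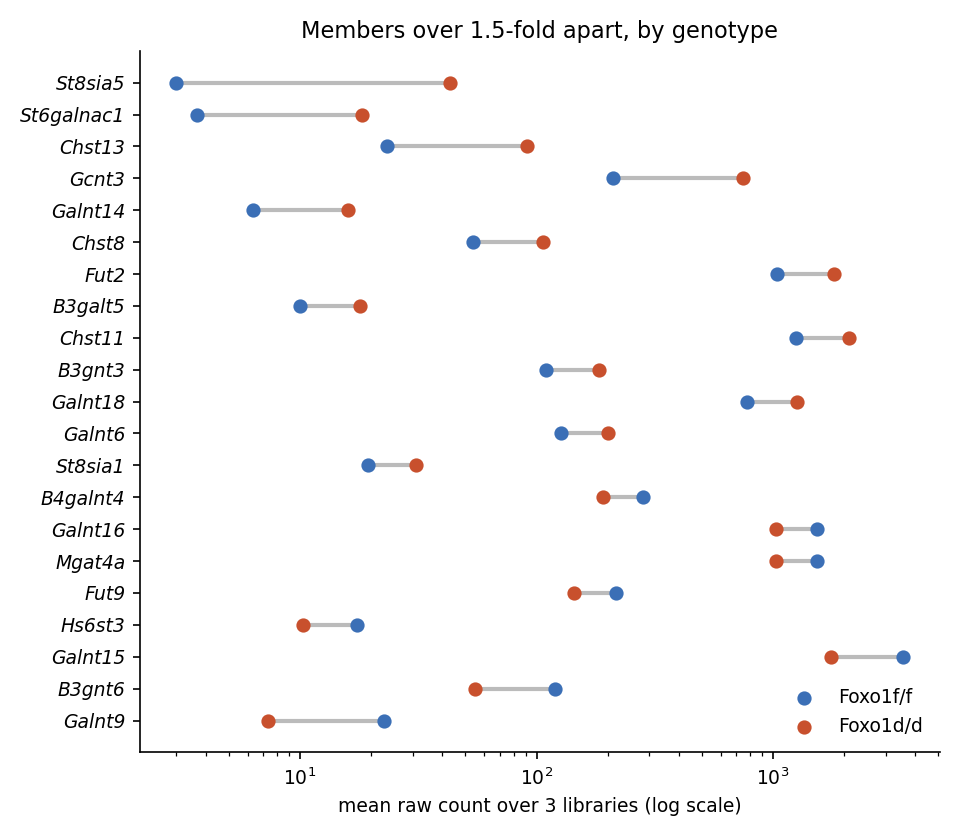
Mean raw counts over 3 libraries of the 21 members over 1.5-fold apart are plotted on a log axis for *Foxo1f/f* (blue) and *Foxo1d/d* (red), ordered by their log2 ratio, with no spread between pools. *St8sia5*, *St6galnac1*, *Galnt14* and *Galnt9* have a mean count below 10 in one genotype, and *Galnt15* has the most counts in controls and *Chst11* in *Foxo1d/d*.

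Among the enzymes that build N-acetyllactosamine and related chains, *B3galt5* and *B4galnt4* passed 1.5-fold. Of all genes, 5.43% were higher and 3.51% lower to that extent. None of the 7 β1,4-galactosyltransferases passed. *B4galt1*, which led them per kilobase, had mean counts of 4612 and 5482, a 1.14-fold higher level (interval 1.11 to 1.17). Of the 5 β1,3-galactosyltransferases, *B3galt5*, which makes type 1 chains, was 1.73-fold higher on mean counts of 10 and 18 (interval 1.11 to 2.69). *B3galt6*, an enzyme of the proteoglycan linker, led that family, with 311 and 372 counts. *B4galnt4*, which adds the GalNAc of the LacdiNAc unit, was 1.54-fold lower, with mean counts of 282 and 191 (interval 1.38 to 1.71). *B4galnt2*, known for the Sda antigen, had 96.7 and 68.7 counts and lay just under the threshold at 1.47-fold lower (interval 1.23 to 1.76). *B4galnt1*, the ganglioside enzyme that led the family with 1717 and 1740 counts, differed within counting error, and 29.9% of its annotated exon length is shared with one exon stretch of *Slc26a10*.

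Of the N-glycan branching enzymes, 1 of 7 was past 1.5-fold, while of all genes 5.43% were higher and 3.51% lower to that extent. *Mgat4a*, which adds a β1,4-linked branch, had mean counts of 1534 in controls and 1027 in *Foxo1d/d*, a 1.56-fold lower level (interval 1.49 to 1.63). Its paralog *Mgat4b*, which led the family at 33.4 and 35.6 CPM per kilobase, was 1.07-fold higher (interval 1.03 to 1.10). The paralogs thus moved apart, with the more abundant one nearly level.

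Sialic acid is added at the ends of the chains by 4 families. No α2,3-sialyltransferase was past 1.5-fold by the main scaling, but *St3gal1*, which sialylates core 1 and was the most abundant member by counts, came close. Its mean count was 8435 in controls and 5914 in *Foxo1d/d*, a 1.49-fold lower level (interval 1.46 to 1.52), and it passed 1.5-fold when ratios were centred on the median gene or scaled by the upper quartile. *St3gal1* held 42.6% of the family's level per kilobase in controls and 32.8% in *Foxo1d/d*, and the sum of the family was 131 and 114 CPM per kilobase. *St3gal4*, with 1504 and 1805 counts, was 1.15-fold higher (interval 1.11 to 1.20). *St6gal1*, which caps N-glycans, was level, with 1305 and 1372 counts.

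Among the enzymes that sialylate GalNAc, *St6galnac1* stood apart. It makes the sialyl-Tn structure, which stops the O-glycan at its first sugar, and its mean count was 3.67 in controls and 18.3 in *Foxo1d/d*, a 4.79-fold higher level with an interval of 2.54 to 9.06. The other 5 members were under 1.5-fold apart, and *St6galnac6*, which led the family, had 1613 and 1770 counts. The median of this family was 0.01 and turned negative, to -0.01, when centred on the median gene. Of the α2,8-sialyltransferases, *St8sia5*, a ganglioside enzyme, had mean counts of 3.00 and 43.0, a 13.7-fold higher level with an interval of 7.08 to 26.7, and its log2 ratio of 3.40 depends on the pseudocount (2.52 with 5). *St8sia1*, which makes ganglioside GD3, had 19.3 and 31.0 counts and a 1.54-fold higher level (interval 1.11 to 2.13) that fell under the threshold with another scaling or pseudocount. *St8sia4*, a polysialic acid enzyme, led the family with 1005 and 1032 counts and did not differ beyond counting error.

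Fucosyltransferases split as well. *Fut2*, which makes the H antigen by adding α1,2-linked fucose and is known from the secretory epithelium of the female tract, had a mean count of 1039 in controls and 1805 in *Foxo1d/d*. That was a 1.67-fold higher level (interval 1.59 to 1.74), and its share of the family's level per kilobase was 27.7% and 37.5%. *Fut9*, which makes the Lewis x structure, was 1.57-fold lower, with mean counts of 218 and 145 (interval 1.39 to 1.77). *Fut4*, which also adds α1,3-linked fucose, had 318 and 433 counts and was 1.31-fold higher (interval 1.20 to 1.42). *Fut8*, the core fucosyltransferase of N-glycans, had 1131 and 1319 counts, a 1.12-fold higher level (interval 1.07 to 1.17).

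Sulfate is added by the largest group after the GalNAc-transferases. Of 13 carbohydrate sulfotransferases with a mean count of at least 10, 3 were higher and none was lower past 1.5-fold. The shares of all genes were 5.43% higher and 3.51% lower. The family's median of 0.02 turned to -0.01 when ratios were centred on the median gene. *Chst11*, a chondroitin sulfotransferase, had mean counts of 1247 and 2100, a 1.61-fold higher level (interval 1.55 to 1.68). *Chst13*, which has the same activity, had 23.3 and 91.0 counts, a 3.74-fold higher level (interval 2.88 to 4.86). *Chst8*, known for sulfating the N-glycans of pituitary hormones, had 54.0 and 107 counts, a 1.89-fold higher level (interval 1.57 to 2.29). *Chst12*, also a chondroitin sulfotransferase and the leader of the family per kilobase in controls (*Chst14* led in *Foxo1d/d*), went the other way, with 1093 and 935 counts, a 1.22-fold lower level (interval 1.16 to 1.28).

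The heparan sulfate sulfotransferases had 1 of 8 members past 1.5-fold, while 5.43% of all genes were higher and 3.51% lower to that extent. This was *Hs6st3*, 1.75-fold lower on mean counts of 17.3 and 10.3 (interval 1.13 to 2.72). *Hs6st1*, which led the family, had 1691 and 1787 counts and did not differ beyond counting error. *Hs3st1*, which makes the antithrombin-binding form of heparan sulfate, had 376 and 543 counts, a 1.38-fold higher level (interval 1.28 to 1.49). Just outside the threshold lay *Hs3st4*, with a log2 ratio of -0.58, and *St3gal1*, with -0.57. Just inside it lay *St8sia1* and *Galnt6*, with 0.59 each.

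Counting error alone left 10 of the 21 members with a whole interval past 1.5-fold. These were *Gcnt3*, *Fut2*, *Chst8*, *Chst11*, *Chst13*, *St6galnac1* and *St8sia5* on the higher side, and *Galnt9*, *Galnt15* and *B3gnt6* on the lower side. Of these, *St6galnac1*, *St8sia5* and *Galnt9*, and of the other members *Galnt14*, had a mean count below 10 in 1 genotype and passed the filter through the other. With ratios centred on the median gene, *Galnt6* and *St8sia1* fell under 1.5-fold and *Hs3st4* and *St3gal1* passed it, which gave 11 higher and 10 lower members. The share of all genes is not given here for the interval count or for the centred ratios, so these counts have no comparison.

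The deleted gene encodes a forkhead factor, so the starts of the members that moved were searched for the forkhead motif GTAAACA and its complement TGTTTAC. Promoters of a reference table (GRCm38.p6) matched 14 of the 21 members over 1.5-fold apart, and in the 250 bases before the 21 starts in that table neither strand held the motif. Of these windows, 15 reach into the span of the gene in RefSeq, and starts outside that table were not searched. Of all 32851 promoters, 3.17% held it in a window of the same length. The shorter core TAAACA, with its complement TGTTTA, was searched after that result was seen. The core lies within the longer motif, and it was also in none of the 14 genes and in 12% of all promoters. Of the 92 members matched in that table, 3 held the longer motif and 6 the core in such a window. With the longer motif in 3.17% of all promoters, no match among so few starts is a common outcome. A lack of these letters in so short a window says nothing of binding elsewhere. One window from each direction, both outside the span of the gene, is shown so that the stretch can be read, in lower case throughout because neither holds a match. For *Chst13*, the higher chondroitin enzyme, it is chr6:90325186-90325435 on the minus strand, and for *B4galnt4*, the lower LacdiNAc enzyme, chr7:141060728-141060977 on the plus strand.
Chst13: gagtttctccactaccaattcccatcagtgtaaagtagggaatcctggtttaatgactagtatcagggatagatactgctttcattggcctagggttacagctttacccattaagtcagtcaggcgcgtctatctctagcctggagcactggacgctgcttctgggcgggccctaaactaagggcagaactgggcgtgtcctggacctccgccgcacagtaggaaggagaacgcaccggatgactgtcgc
B4galnt4: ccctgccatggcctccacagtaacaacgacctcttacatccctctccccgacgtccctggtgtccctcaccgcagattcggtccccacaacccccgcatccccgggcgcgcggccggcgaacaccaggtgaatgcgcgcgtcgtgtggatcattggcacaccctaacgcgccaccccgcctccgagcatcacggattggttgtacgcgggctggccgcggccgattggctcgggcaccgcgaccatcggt

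Other glycan and mucus genes were listed in 7 groups outside the symbol rule. Some supply these enzymes, and others encode further enzymes, mucus companions, carriers of glycans or lectins that bind them. Of their 147 genes, 134 had a mean count of at least 10, and past 1.5-fold 11 of these were higher in *Foxo1d/d* (8.21%, against 5.43% of all genes) and 0 were lower (against 3.51%), with 1 lower gene, *Agr2*, under each of 3 other scalings. Of 22 genes for nucleotide sugar and sulfate donors, with a median log2 ratio of 0.01, only *Fuk* passed, the kinase that salvages fucose. It had mean counts of 786 and 1334, a 1.63-fold higher level (interval 1.55 to 1.71), beside the higher *Fut2*. None of 15 Golgi transporters of nucleotide sugars and sulfate passed, nor did any of 12 sialidases, fucosidases and other lysosomal glycosidases, with medians of 0.09 and 0.01. Of 42 other Golgi glycan enzymes, *B3gat1*, which makes the HNK-1 epitope, was higher, with 26.0 and 51.3 counts (1.89-fold, interval 1.44 to 2.48).

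Genes of mucus maturation and companion proteins had the highest median of the 7 groups, 0.62, and 4 of 8 were over 1.5-fold higher, while the other 7 of 15 listed had a mean count below 10. Of the 4, the gene listed as *Clca3* and *Dmbt1* reached the filter only through *Foxo1d/d*, and without them the median was 0.29 and 2 of 6 were higher. *Fcgbp*, a large partner of gel-forming mucins, had a mean count of 573 in controls and 3317 in *Foxo1d/d*, a 5.55-fold higher level (interval 5.27 to 5.84). The gene listed as *Clca3*, whose current symbol is *Clca1* and which encodes a goblet cell protease, had 8.33 and 61.3 counts, 7.05-fold higher (interval 4.66 to 10.7). *Dmbt1*, a mucin-like scavenger receptor, had 1.33 and 25.7 counts, and its 18.4-fold higher level has a wide interval of 7.02 to 48.5. *Spdef*, a transcription factor of goblet cells, had 15.3 and 26.7 counts (1.67-fold higher, interval 1.16 to 2.39). *Agr2*, the disulfide isomerase that folds gel-forming mucins, lay just under the threshold in the other direction, with 277 and 193 counts and a log2 ratio of -0.58. The other members differed less, and the gene listed as *Clca1* in the table, a different gene from the one above, had 3088 and 3276 counts, a ratio within counting error.

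Of 13 mucin-like carriers, *Prg4*, the lubricant of joints, was higher (28.3 and 57.7 counts, 1.95-fold, interval 1.51 to 2.53). Of 22 lectins, 4 were higher, and 3 of them are described here. *Siglech*, of plasmacytoid dendritic cells, had 66.0 and 207 counts, a 3.00-fold higher level (interval 2.56 to 3.52). *Clec10a*, a macrophage lectin, had 957 and 1675 counts (1.68-fold, interval 1.60 to 1.76), and *Lgals12*, a galectin of fat cells, 21.0 and 33.7 counts (1.54-fold, interval 1.12 to 2.10). *Lgals12* fell under 1.5-fold under 2 other scalings.

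**Figure D4:**
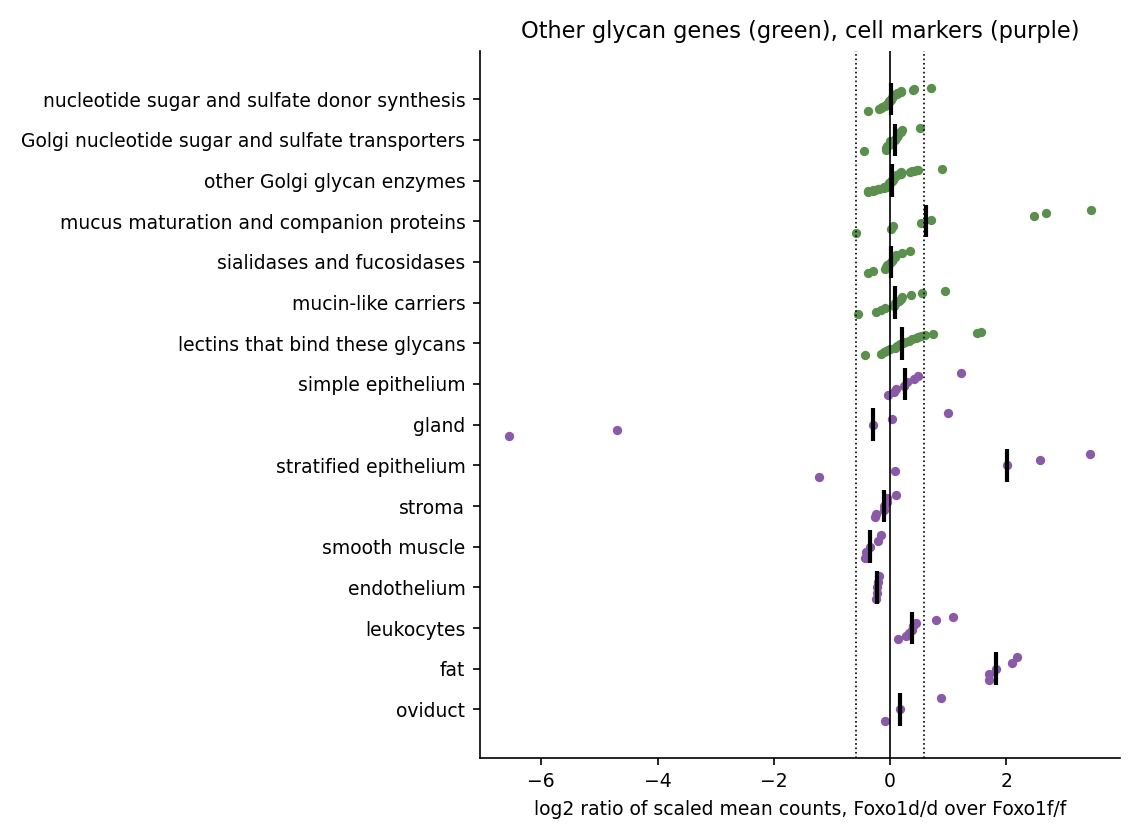
Each point is the log2 ratio, *Foxo1d/d* over *Foxo1f/f*, of a gene that passed the filter and belongs to other glycan genes (green) or to cell type markers (purple), and black bars are the medians of the groups. Dotted lines mark 1.5-fold. The 5 fat markers lie to the right of the line and the endothelial and stromal markers between the lines.

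Markers of the cell types in a uterus differed between the genotypes too, and their part in the values above was not tested. All 5 fat markers were over 1.5-fold higher, of which *Lep* reached the filter only through *Foxo1d/d*, and their summed level was 10.2 CPM in controls and 36.7 in *Foxo1d/d*, led by *Fabp4*. Of 8 leukocyte markers with a mean count of at least 10, the T cell genes *Cd3e* and *Cd3g* were higher, and the sum over all 9 was 230 and 294 CPM, led by *Ptprc*. In the same list *Cd68*, *Emr1* and *Itgam* were 1.10-, 1.21- and 1.26-fold higher, under the threshold. The fat and leukocyte values stand beside the higher *Lgals12*, *Siglech* and *Clec10a*. The paper's methods leave the cervix out for uteri taken after surgery for another assay, and for the sequenced uteri neither they nor the labels state this. Of 5 stratified epithelium markers, the keratins *Krt5*, *Krt14* and *Krt15* were higher and *Dsg3* was lower, with a sum over 7 genes of 8.65 and 22.8 CPM, led by *Trp63* in controls and by *Krt5* in *Foxo1d/d*. Simple epithelium, in which *Muc1*, *Fut2* and *Gcnt3* are known to be expressed, had 8 markers. Of these, *Krt19* was higher (2.33-fold, interval 2.22 to 2.45) and 7 were under 1.5-fold apart. The median log2 ratio of the 8 was 0.26, and their sum was 766 and 919 CPM, led by *Cdh1*. Of 5 gland genes (*Cxcl15*, also listed, matched no gene in the table), *Prss28* was 95.7-fold and *Spink3* 26.1-fold lower, *Lif* was higher, and *Foxa2* and *Sox9* were under 1.5-fold apart, and the sum was 392 and 112 CPM, led by *Prss28* in controls and by *Lif* in *Foxo1d/d*. No marker of stroma, smooth muscle or endothelium was past 1.5-fold, with medians of -0.11, -0.34 and -0.22 and sums of 6632 and 6445, 5447 and 4362, and 1127 and 969 CPM, led by *Col1a1*, *Myh11* and *Pecam1*. Of 3 oviduct markers, *Foxj1* was higher on 12.7 and 25.3 counts, while the sum, led by *Ovgp1*, was 166 and 177 CPM. Every marker listed here had counts in both genotypes.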

How the data were processed

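Per the labels, uterine RNA was made into TruSeq libraries. The authors trimmed the reads, aligned them with STAR, removed duplicates with Picard and counted reads per RefSeq gene with HTSeq, with no versions given in the sources used here. The paper's methods name the build mm10 and the submitters' processing notes mm9. The authors deposited mean raw counts per genotype over 3 libraries. The authors also deposited their own edgeR fold changes, p-values, FDR and log2 CPM, which were not used. The test planned for single libraries was therefore not run.

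Here, mean counts plus a pseudocount of 1 were divided by the genotype's total, and log2 ratios were taken for genes whose mean count over the 2 genotypes reached 10. Folds were computed without the pseudocount, with 95% Wilson intervals from sums of counts (totals 78375043 for controls, 81773890 for *Foxo1d/d*). No fold is given for a gene with a summed count of 0 in a genotype. Levels between genes used exon lengths from GENCODE vM21 (GRCm38), matched by Entrez ID for 120 of 121 members, and positions RefSeq on GRCm38.p6. Strand use and the assignment of reads shared by overlapping genes or paralogs are not given in the sources used here.

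Named genes are the mucins with a mean count of at least 10, the other members over 1.5-fold apart, the member of each enzyme family with the most counts per kilobase, *Foxo1*, and in the other lists at most 6 genes over 1.5-fold apart. Others were named after their values were seen. The values of 1 lectin gene are not reported here. The members and lists were chosen with earlier results of these data known. Alternatives were other scalings, pseudocounts, filters and thresholds. The steps were tested on simulated data. Python 3.11.15, numpy 2.4.6, pandas 2.3.3, scipy 1.17.1 and matplotlib 3.10.9 were used.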

Additional observations from a re-analysis of the deposited data

How the results depend on the processing

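The counts of members past the threshold depended mostly on low-count genes and on the size of the threshold. With a mean count of at least 50, 8 members were higher and 6 lower, from 7 of the families in place of 11, and 5 genes of the other glycan lists passed in place of 11, since fewer genes were counted. At 2-fold, 5 members were higher and 3 lower, and with the whole counting interval past 1.5-fold, 7 were higher and 3 lower. The other scalings, pseudocounts and the looser filter gave 10 to 17 higher and 8 to 10 lower members, within 1.5 times of 13 and 8. The share of all genes is not given here for any of these recounts. Whether the members' larger shares hold under them was therefore not tested. All 8 lower members stayed past 1.5-fold under the 3 scalings and both pseudocounts, while *Galnt6* and *St8sia1* fell short under 2 of the scalings and, with *B3galt5*, under a pseudocount of 5. *St3gal1* and *Hs3st4* passed under 2 scalings, and *Hs3st4* also with a pseudocount of 0.1. No named gene past 1.5-fold changed sign under any of these, and the largest shift of a log2 ratio under a scaling was 0.02. With a pseudocount of 5 the log2 ratio of *St8sia5* was 2.52 in place of 3.40. In the other glycan lists *Agr2* passed as lower under all 3 scalings, *Lgals12* fell short under 2 of them and under a pseudocount of 5, and *Spdef* under that pseudocount. The mucins' median of 0.08 turned to -0.07 with a mean count of at least 50.

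No paired analysis was possible because the table gives genotype means, so libraries that share a number cannot be compared. Leaving out single libraries was not possible for the same reason, and how much any 1 pool adds to a difference is not known. Depth limits the members with few counts, whose intervals are wide.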

Other observations

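Some members lie side by side in the genome. *Fut1*, which like *Fut2* makes the H antigen, lies on chromosome 7 from 45617606 to 45621059 (GRCm38.p6), and *Fut2* from 45648591 to 45666394. *Fut1* had mean counts of only 3 and 7, against 1039 and 1805 for *Fut2*. The gel-forming mucins *Muc6*, *Muc2*, *Muc5ac* and *Muc5b* lie together on chromosome 7 between 141633459 and 141873089. *Muc5ac*, with mean counts of 0.333 and 0.667, and *Muc5b*, with 2.33 and 4.67, were near the limit of detection in both genotypes, although *Fcgbp* and the gene listed as *Clca3*, which are secreted with such mucins, were higher in *Foxo1d/d*. *Muc13*, with 4.33 and 6.67 counts, *Muc15*, with 0.333 and 1.67, and *Muc19*, with 1.67 and 0.667, were as scarce. The remaining members with a mean count below 10 were *Mgat5b*, *Hs3st5* and *Galntl5*.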
